A study of Mus musculus with 7 samples.

Results

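The array labelled wild type day 3 replicate 1 was set against its replicates, numbered 2 and 3. These are 3 of the 7 arrays in the series, and they share a slide, a dye and a label. All samples were brain RNA from male mice of the C57BL/6N background. The 3 arrays are labelled as wild type brains taken on day 3 after the middle cerebral artery had been occluded for 60 min and reopened. The other arrays are 1 labelled as a sham-operated wild type brain, on the same slide, and 3 labelled as day 3 brains of Pla2g2e -/- mice, which lack a secreted phospholipase A2, on a second slide. The treatment text of the labels names the occlusion for the sham sample too. Slide and genotype therefore cannot be told apart. The labels give neither the region or hemisphere that was sampled nor whether replicates were separate animals, so the spread between arrays may be technical.

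Replicate 1 was chosen by its measured signals, which lay far from those of the other wild type day 3 arrays, and its genes were selected on the same signals. It stands alone against 2 arrays, and its label may be in error. Its differences from replicates 2 and 3 are therefore a description and carry no test. Levels are log2 signals from which the array's own 75th percentile was subtracted. The gap of a gene is its level on replicate 1 minus the nearer of its levels on replicates 2 and 3, and is 0 when replicate 1 lies between them. Of 23312 genes and unnamed transcripts (features), replicate 1 was lower by a gap of at least 1, which is 2-fold, in 4289 (18.4%) and higher in 4584 (19.7%). Replicates 2 and 3 differed from each other by as much in 1195 (5.13%). It lay below both other arrays in 41.5% and above both in 51.5%, and was the lowest of all 7 arrays in 34.3% and the highest in 43.9%. These shares follow from the choice of the array, and nothing is read from them. At the edge, the lower side had G2e3 just inside, at -1.00069, and the unnamed transcript ENSMUST00000118638 just outside, at -0.999945. On the higher side Ubl3 stood inside at 1.0004 and Ift172 outside at 0.999869.

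In an infarct, neurons die within hours to days, and microglia, monocytes and neutrophils gather to clear the debris. Astrocytes around the core become reactive, microglia and vessel cells divide, and a scar of matrix proteins forms. Intact brain holds many neuronal and synaptic transcripts and few of phagocytes, dividing cells and neutrophils. In RNA from whole tissue, fewer cells of a type and less RNA per cell cannot be told apart.

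The probes of 5 genes from the ends of the ranking show what was read. Spp1 and Arg1 belong to activated phagocytes and were lowest on replicate 1, while Drd2, Kcnip2 and Sstr2 belong to neurons and were highest on it. Each is a 60-base probe from the array files, 5′ to 3′ in the sense of the transcript and wholly in lower case because no part of it is singled out. On mm9 they lie at chr5:104868502-104868561 (+ strand), chr10:24636194-24636253 (- strand), chr9:49215047-49215106 (+ strand), chr19:45868494-45868553 (- strand) and chr11:113486505-113486564 (+ strand), in that order.
Spp1: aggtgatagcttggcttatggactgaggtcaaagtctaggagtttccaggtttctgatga
Arg1: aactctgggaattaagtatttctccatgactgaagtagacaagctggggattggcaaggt
Drd2: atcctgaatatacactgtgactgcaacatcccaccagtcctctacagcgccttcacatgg
Kcnip2: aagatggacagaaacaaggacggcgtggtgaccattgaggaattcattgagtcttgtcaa
Sstr2: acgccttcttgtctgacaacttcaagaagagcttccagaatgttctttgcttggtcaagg

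**Figure D1:**
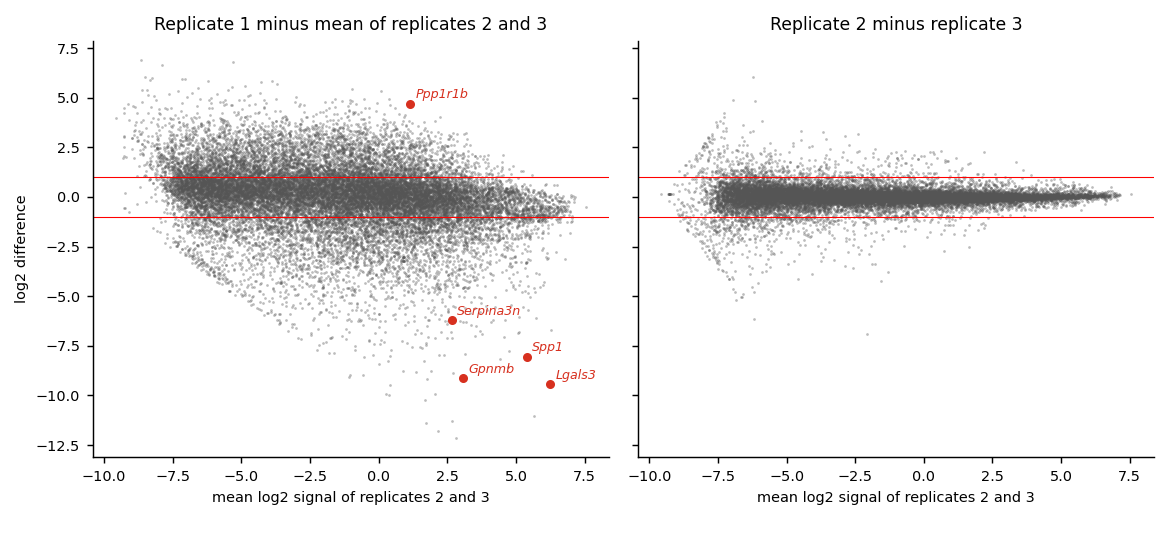
Each point is 1 feature, at its mean log2 signal on wild type day 3 replicates 2 and 3 (horizontal) and its log2 difference (vertical), between replicate 1 and that mean on the left and between replicates 2 and 3 on the right. Red lines mark 2-fold, and the left cloud reaches far beyond them at all signal levels, with Spp1, Lgals3, Gpnmb and Serpina3n below and Ppp1r1b above.

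Across the lists, replicate 1 was low in markers of infarcted brain and high in markers of neurons, and replicates 2 and 3 were the reverse. Of 43 gene lists, 14 had a median gap of at least 2-fold downward and 9 upward. The array labelled sham was nearer to the mean of replicates 2 and 3 for all 28 phagocyte, 18 monocyte and 24 cell cycle genes. It was nearer to that mean for 7 of 13 neutrophil genes, 1 of 7 hemoglobin and erythroid genes and 76.2% of all features. Its phagocyte median was 3.56, against -1.28 on replicate 1. Its striatal median, 1.11, lay between 4.25 on replicate 1 and -0.16 and -0.24 on replicates 2 and 3.

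Genes of phagocytes were among those with the widest gaps downward. All 28 measured genes of the phagocyte and damage-associated microglia list were lower on replicate 1, 26 of them by at least 2-fold, with a median gap of -3.47 against 0.04 over all features. Replicate 1 was the lowest of the 7 arrays for all 28. The list median read -1.28 on replicate 1 and 3.65 and 3.64 on replicates 2 and 3. Chil3, a chitinase-like protein of alternatively activated macrophages, had the widest gap of any gene above background on all 3 arrays. It read -5.38 on replicate 1, 5.96 on replicate 2 and 5.32 on replicate 3, a gap of 1666-fold. Lgals3, a galectin of activated phagocytes, had a gap of 680.4-fold, and Gpnmb, a glycoprotein of lipid-laden phagocytes, one of 542-fold. Replicates 2 and 3 differed by 0.03 for Lgals3 and by 0.13 for Gpnmb. Spp1, which encodes osteopontin, had a gap of 239-fold. The smallest gaps of the list were -0.55 for Apoe, the lipid carrier, and -0.86 for Lpl, lipoprotein lipase.

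Several phagocyte genes were not well above background on replicate 1, so that only a bound can be given. Such a bound sets the mean of replicates 2 and 3 against the higher of the gene's own signal on replicate 1 and the lowest signal well above background there. Arg1, arginase of alternatively activated macrophages, read 2.89 and 2.73 on replicates 2 and 3 and was at least 1629-fold lower on replicate 1. Clec4d, a C-type lectin receptor of myeloid cells, was at least 1471-fold lower, and Saa3, an acute phase protein, at least 1029-fold lower. Msr1, a scavenger receptor, was at least 425-fold lower. These bounds, here and for other genes, hold for the processed signal only: with normexp background correction the log2 gaps were smaller, at -7.76 for Arg1, -6.25 for Saa3 and -5.42 for Msr1. The closely related receptor genes Lilr4b and Lilrb4a had gaps of 539.8-fold and 372-fold, and Sirpb1a and Sirpb1b also lay far below. Probes may not separate such near-identical genes, so each of these is uncertain on its own.

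Blood-borne myeloid genes followed the same order, but the neutrophil list was mixed. All 18 monocyte and macrophage genes were lower on replicate 1, 17 by at least 2-fold (median gap -5.09), and the smallest gap was -0.49 for Vcan, which encodes the matrix proteoglycan versican. Of 13 neutrophil genes, 10 were lower and 7 by at least 2-fold (median gap -4.32). S100a8, a calcium-binding protein abundant in neutrophils, read -3.21 on replicate 1 and 3.19 and 2.97 on replicates 2 and 3. Cxcr2, the neutrophil chemokine receptor, read -0.96 and -1.21 on replicates 2 and 3 and was at least 110-fold lower on replicate 1. Some granule genes of maturing neutrophils did not share this gap: Ltf, lactoferrin, read -4.91, -4.87 and -4.28, and Camp, cathelicidin, read -3.04, -4.20 and -3.04 on replicates 1, 2 and 3. The receptor gene Csf3r did not share it either, with a gap of 0.28. The array labelled sham lay between the sides for S100a8, at 0.43.

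Chemokines and cytokines were lower throughout the list, with 21 of 21 genes below both other arrays and 20 by at least 2-fold (median gap -4.32). Ccl2, which draws monocytes, read -3.49 on replicate 1 and 3.38 and 3.65 on replicates 2 and 3. Cxcl1, which draws neutrophils, was at least 159-fold lower. At the other end stood Il1a, interleukin 1 alpha, which was not well above background on replicate 1, and Lif, leukemia inhibitory factor, with a gap of -1.10.

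Homeostatic microglia genes had smaller gaps than the phagocyte list, and not all in 1 direction. Of 13, 11 were lower, 6 by at least 2-fold (median gap -0.86). Fcrls, a receptor-like gene of microglia, read -1.04 against 2.60 and 2.05. Cx3cr1, the fractalkine receptor, read 2.86 against 3.58 and 3.21. P2ry12, the ADP receptor of resting microglia, was higher on replicate 1, at 0.14 against -0.83 and -1.03, and Siglech, a sialic acid-binding lectin, at 4.48 against 4.29 and 3.88.

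The astrocyte lists split by the kind of gene. All 26 reactive astrocyte genes were lower on replicate 1 by at least 2-fold (median gap -4.27). This list shares genes with other lists, such as Cd14 with the monocyte list and C3 with the complement list. Its gap therefore cannot be assigned to astrocytes alone. Timp1, an inhibitor of matrix proteases, read -3.74 against 4.39 and 4.44. Tgm1, a transglutaminase, read -7.49 against 1.76 and 0.95. Serpina3n, a secreted protease inhibitor of reactive astrocytes, had a gap of 73.3-fold. Gfap, the intermediate filament of astrocytes, read 0.43 against 4.22 and 3.68. By contrast, none of the 16 astrocyte genes for glutamate, potassium and water handling was lower by 2-fold and 6 were higher by that much (median gap 0.24). Slc1a2, the main glutamate transporter, read 3.33 against 1.67 and 1.14, and Glul, glutamine synthetase, read 4.74 against 4.93 and 4.80.

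**Figure D2:**
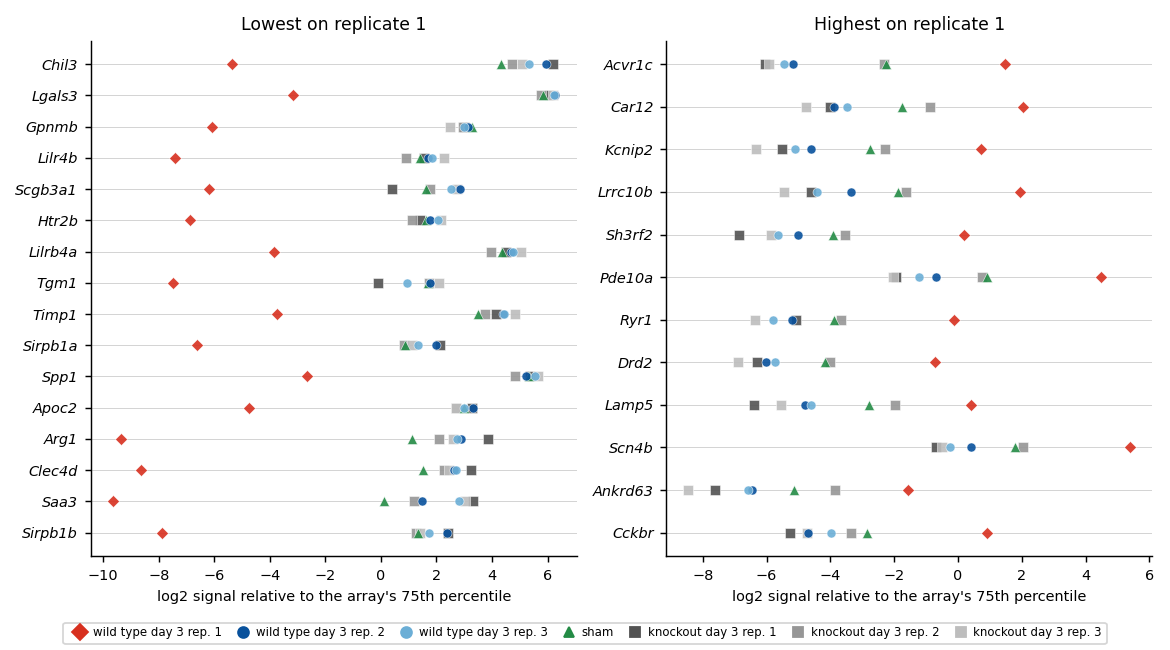
Log2 signal on each of the 7 arrays for 16 genes lowest on replicate 1 (left, the last 4 not well above background there) and 12 genes highest on it (right). The red diamond of replicate 1 stands apart in every row, and on the right the sham array and knockout replicate 2 lie between it and the other 4 arrays.

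Genes of dividing cells were low on replicate 1. All 24 cell cycle genes were lower on replicate 1, 22 by at least 2-fold (median gap -3.97), and replicates 2 and 3 were close to each other, with a median difference of 0.08. Top2a, the topoisomerase of dividing cells, read -0.22 and -0.11 on replicates 2 and 3 and was at least 168-fold lower on replicate 1. Cdk1, the kinase that starts mitosis, was at least 232-fold lower. Mki67, the Ki-67 antigen, read -3.71 against 2.55 and 2.52. Ccne1, cyclin E1, stood out with 1.04 against 1.14 and 1.05, and Pcna, a clamp of DNA replication, had a gap of -1.71, on a probe that may also read copies of the gene.

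Matrix and vessel genes were lower as well. Of 26 extracellular matrix and scar genes, 25 were lower by at least 2-fold (median gap -3.68). Mmp3, stromelysin, read 1.88 and 1.57 on replicates 2 and 3 and was at least 772-fold lower on replicate 1, while Col6a1, a collagen VI chain, had a gap of 0.03. Of 17 endothelial and barrier genes, 14 were lower by at least 2-fold (median gap -2.65). Vwf, von Willebrand factor, read 1.06 against 5.67 and 5.63. Mfsd2a, a lipid transporter of the blood-brain barrier, read 0.68 against 0.23 and 0.42. Of 12 pericyte and smooth muscle genes, 9 were lower by at least 2-fold (median gap -2.08), led by Des, desmin, at -5.76 against -1.49 and -1.58.

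Complement, antigen presentation and interferon genes were mostly lower on replicate 1 too. Of 14 complement genes, 12 were lower by at least 2-fold (median gap -3.06), among them C5ar1, the C5a receptor, at -6.40 against 0.83 and 0.87. The exception was Itgam, the alpha chain of complement receptor 3, whose brightest probe was higher on replicate 1, at 3.89 against 2.49 and 2.07. That value depends on the probe: the other 2 Itgam probes had gaps of -3.47 and -1.56. Of 12 class I and II MHC genes, 10 were lower by at least 2-fold (median gap -2.53). H2-K1, a class I heavy chain that shares sequence with its neighbours, read 1.63 against 4.45 and 4.53, while Ciita, the activator of class II genes, had a gap of 1.22. Of 16 interferon response genes, 11 were lower by at least 2-fold (median gap -1.74), led by Ifitm3, an interferon-induced membrane protein, with a gap of -4.08.

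**Figure D3:**
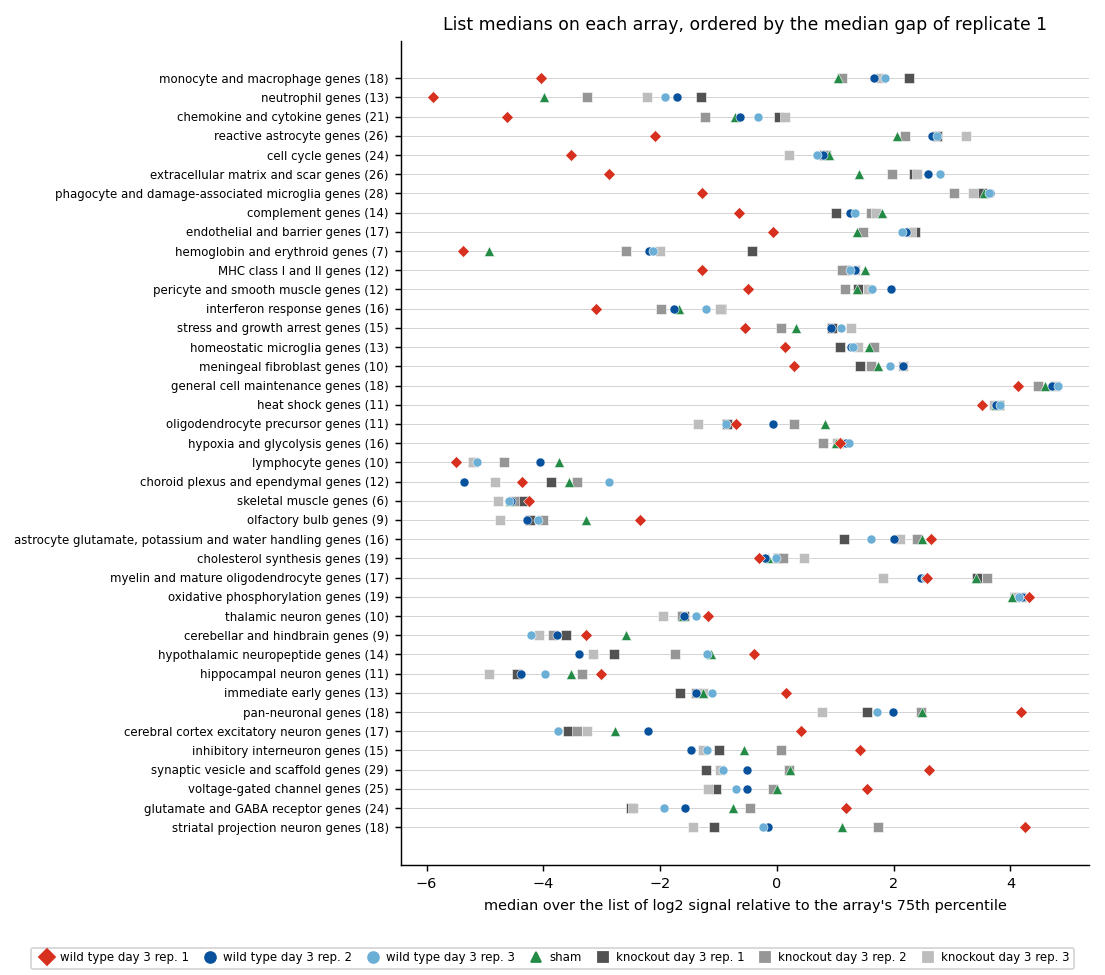
Median log2 signal of each gene list on each array (number of measured genes in brackets), ordered by the median gap of replicate 1 from the lowest at the top. Most injury and immune lists put the red diamond of replicate 1 to the left. The pan-neuronal, striatal, cortical, interneuron and synaptic lists put it to the right. In the thalamic, hippocampal, cerebellar and lymphocyte lists it lies close to other arrays or among them. Lists such as cholesterol synthesis or oxidative phosphorylation keep all 7 arrays together.

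Neuronal genes formed the other side. All 18 striatal projection neuron genes were higher on replicate 1 by at least 2-fold, with the largest median gap of any list upward (4.12). Replicate 1 was the highest of the 7 arrays for all 18. The list median read 4.25 on replicate 1 and -0.16 and -0.24 on replicates 2 and 3. The striatum is the core of the territory of the middle cerebral artery. Pde10a, the phosphodiesterase of these neurons, read 4.47 against -0.70 and -1.23, a gap of 36.1-fold. Drd2, the D2 dopamine receptor, read -0.72 against -6.02 and -5.74, a gap of 32.5-fold. Ppp1r1b, which encodes the dopamine-regulated phosphoprotein DARPP-32, had a gap of 19.3-fold, although replicates 2 and 3 themselves differed by 0.86 for it. Foxp1, a transcription factor of these neurons that other cells also make, had the smallest gap, 1.34.

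Among named genes above background on all 3 wild type day 3 arrays, Acvr1c, an activin-type receptor, had the widest gap upward. It read 1.48 on replicate 1 and -5.19 and -5.47 on replicates 2 and 3, a gap of 102-fold. Car12, a carbonic anhydrase, followed among these at 45.2-fold. Kcnip2, a subunit of A-type potassium channels, read 0.72 against -4.62 and -5.10. Scn4b, a sodium channel beta subunit, read 5.41 against 0.41 and -0.25. Some neuronal genes were not well above background on replicates 2 and 3. Sstr2, a somatostatin receptor, was at least 15.9-fold higher on replicate 1, and Drd3, the D3 dopamine receptor, at least 17.7-fold. These genes were dim on replicate 1 as well, at -3.27 for Sstr2 and -2.86 for Drd3.

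Neurons of other regions were also higher, to a lesser median. Of 17 cortical excitatory neuron genes, 12 were higher by at least 2-fold (median gap 2.20). Nrgn, neurogranin, read 3.69 against -0.80 and -1.26, and Lamp5, a lysosome-associated membrane protein of neurons, read 0.41 against -4.79 and -4.60. Of 15 interneuron genes, 13 were higher by that much (median gap 2.22), led by Vip, vasoactive intestinal peptide, at -1.78 against -5.32 and -6.08. Hippocampal, thalamic and hypothalamic genes had median gaps of 1.27, 0.34 and 0.61, and replicates 2 and 3 differed by a median of 0.93, 0.48 and 1.05 within these lists. The thalamic and hypothalamic gaps were smaller than the spread between the other 2 arrays, and the hippocampal gap was little larger.

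Transcripts of synapses and excitability were higher as groups. All 29 synaptic vesicle and scaffold genes were above both other arrays, 28 by at least 2-fold (median gap 2.52). Syn2, synapsin II, read 4.55 against 0.86 and 0.87, while Cplx2, complexin 2, had a gap of 0.41. All 24 glutamate and GABA receptor genes were higher by at least 2-fold (median gap 2.86), from 1.21 for Gria2, an AMPA receptor subunit, to 4.27 for Gabra4, a GABA-A receptor subunit. Of 25 voltage-gated channel genes, 22 were higher by that much (median gap 2.73). Scn8a, a sodium channel of the axon, was lower on its brightest probe, at -0.50 against 1.00 and 1.40, but its other 2 probes had gaps of 1.73 and 2.05. Kcna4, a potassium channel read by 1 probe, was lower at 0.67 against 1.62 and 2.15. Of 18 pan-neuronal genes, 17 were higher by at least 2-fold (median gap 2.10), among them Rbfox3, which encodes the neuronal antigen NeuN, at 4.65 against 2.01 and 1.00.

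Immediate early genes went both ways. Of 13, 8 were higher on replicate 1 by at least 2-fold (median gap 2.07). Egr4 read 2.81 against -1.59 and -2.33, and Npas4, which is switched on by neuronal activity, read 1.92 against -1.26 and -1.69. Ier2 was lower, at -4.60 against -2.47 and -2.41, and Fos read -0.35 against 0.13 and 0.55.

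Other groups differed little or went both ways, apart from the stress and growth arrest genes, which were mostly lower. None of the 19 oxidative phosphorylation genes and none of the 19 cholesterol synthesis genes reached 2-fold (median gaps 0.28 and 0.27). Of 17 myelin genes, 3 were lower and 2 higher by at least 2-fold (median gap 0.28). Oligodendrocyte precursor genes had a median gap of -0.14 but opposite members: Bcas1, a gene of early myelinating cells, read 2.75 against 4.83 and 4.95, and Gpr17, a receptor of committed precursors, read 2.76 against -0.07 and -0.88. The 10 measured lymphocyte genes had a median gap of -0.08. Of 16 hypoxia and glycolysis genes, 8 were lower and 8 higher. Adm, adrenomedullin, read -3.39 against 0.34 and 1.02, whereas Bnip3, a mitophagy receptor, read 3.86 against 2.70 and 2.66. Of 15 stress and growth arrest genes, 8 were lower and 1 higher by at least 2-fold (median gap -1.56). Gdf15, a stress-induced cytokine, had the widest gap downward, at -6.33 against 0.96 and 1.09.

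Genes often taken as constant were not all level. The 18 general maintenance genes had a median gap of -0.29, but Gusb, a lysosomal glucuronidase, read -1.07 against 3.05 and 3.06. B2m, the light chain of class I MHC, had a gap of -2.01. The ribosomal protein genes Rplp0 and Rps18 had gaps of -1.21 and -1.17, on probes that may also read their many copies, and Hprt, a purine salvage enzyme, one of 0.49.

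In the hemoglobin and erythroid list the array labelled sham sat with replicate 1. Of 7 measured genes, 6 were lower on replicate 1 by at least 2-fold (median gap -2.64), and the sham array was nearer to replicate 1 than to the mean of replicates 2 and 3 for 6 of 7. Over all features the sham array was nearer to that mean in 76.2%. Hba-a1, an alpha globin gene, read -2.40 on replicate 1, -2.40 on sham, 0.31 and 0.24 on replicates 2 and 3, and 2.13, 0.09 and 0.65 on knockout replicates 1, 2 and 3. Hbb-b1, a beta globin gene, read -6.30 on replicate 1, -6.25 on sham, -3.20 and -3.07 on replicates 2 and 3, and -1.38, -3.53 and -2.98 on the knockout arrays. For both genes the 2 low arrays did not overlap with the other 5. The share of all features split in this way was not computed. Globin genes share sequence, so their probes are not independent of each other. How much blood each sample held was not measured.

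**Figure D4:**
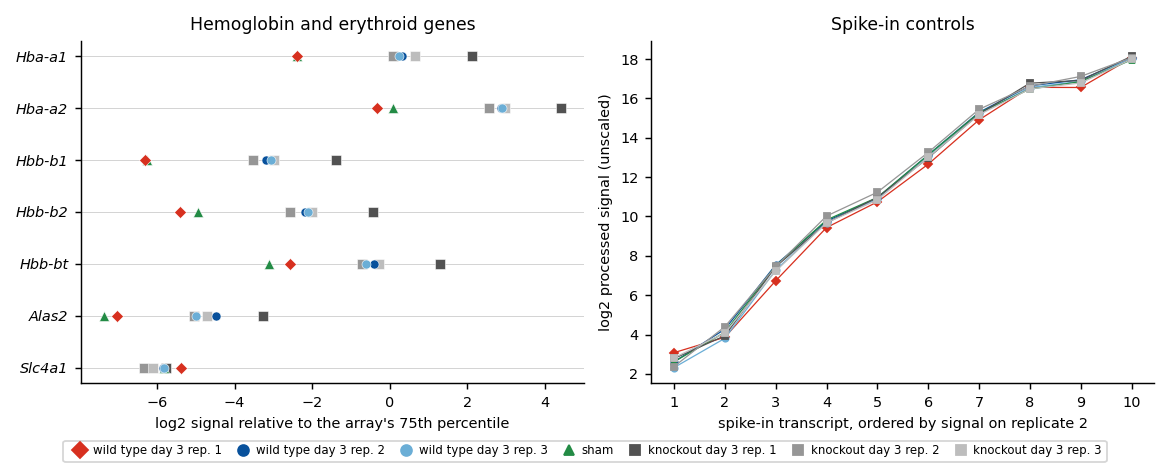
Left, log2 signal of the 7 hemoglobin and erythroid genes on each array, with replicate 1 and sham together at the low end for every gene but Slc4a1. Right, unscaled log2 signal of the 10 spike-in transcripts on each array, whose curves run close together, with replicate 1 slightly below the others for most transcripts.

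The gap does not use the sham and knockout arrays, although the filter on dim probes does, and for most features they were nearer to replicates 2 and 3. Among the features lower on replicate 1, the sham array was nearer to the mean of replicates 2 and 3 in 90.0%, and knockout replicates 1, 2 and 3 in 97.5%, 91.8% and 98.3%. Among those higher, the shares were 85.8%, 98.5%, 88.3% and 98.4%. Over all 23312 features they were 76.2%, 85.9%, 80.0% and 88.0%, so that much of each share is general. Dim genes such as Sstr2 and Drd3 passed the filter only through replicate 1, sham and knockout replicate 2, which partly fixes where those arrays lie for them. Among features well above background on all 3 wild type day 3 arrays, a filter chosen after seeing the data, the shares were 90.7%, 98.4%, 92.4% and 99.0% of 3801 lower features and 88.7%, 99.2%, 90.6% and 99.2% of 4117 higher ones. The position was not the same on all 4 arrays. On a scale with replicate 1 at 0 and the mean of replicates 2 and 3 at 1, the median of the lower features was 0.818 on sham and 0.824 on knockout replicate 2, but 1.03 and 1.05 on knockout replicates 1 and 3. For the higher features it was 0.706 and 0.724 against 1.08 and 1.12. The sham array and knockout replicate 2, which differ in label, genotype and slide, had the fewest features at least 2-fold apart of all 21 pairs of arrays, 866 (3.71%). By the median absolute difference, replicates 2 and 3 were closer to each other, at 0.15 against 0.16.

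**Figure D5:**
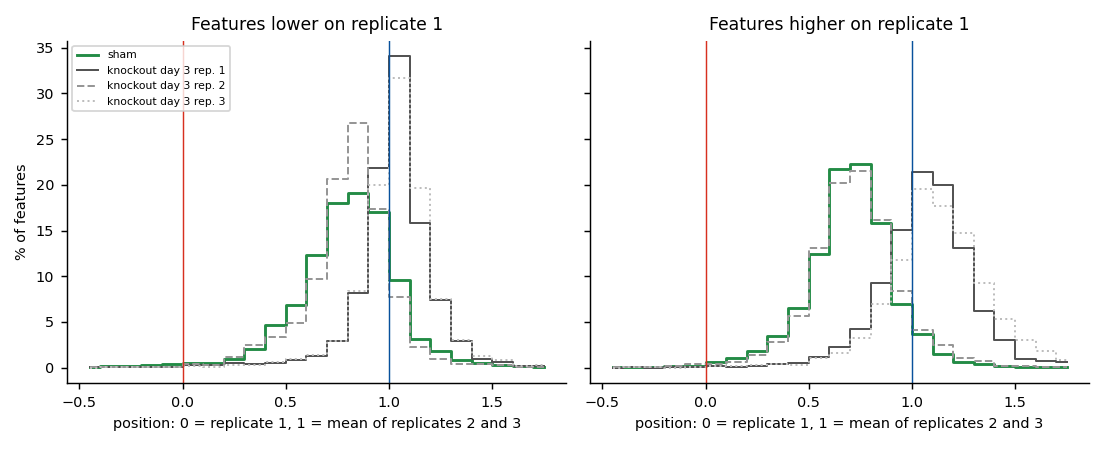
Share of the features lower (left) and higher (right) on replicate 1 by their position on each other array, where 0 is the level of replicate 1 and 1 the mean of replicates 2 and 3; features beyond the axis are not drawn. Sham and knockout replicate 2 peak short of 1 and knockout replicates 1 and 3 at or past it.

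The 3 knockout arrays were tested against the sham array with limma on these 4 arrays alone, which the choice of replicate 1 did not use. No feature passed an adjusted p of 0.05 in either direction (0% called higher and 0% lower; smallest adjusted p = 0.171), and 750 features (3.22%) had an unadjusted p under 0.05. Spp1 differed by -0.04 ± 0.39 (SE; limma, adjusted p = 0.982), reading 5.33 on sham and 5.38, 4.84 and 5.65 on knockout. Lgals3 differed by 0.18 ± 0.27 (SE; limma, adjusted p = 0.870), and Ppp1r1b by -1.12 ± 1.38 (SE; limma, adjusted p = 0.854). A p that misses the threshold at this size does not show that the levels were alike. Among the 4289 features lower on replicate 1, all 3 knockout arrays stood above sham in 43.5%, against 28.5% of all features. Among the 4584 higher ones, all 3 stood below sham in 48.4%, against 25.8%. With 1 sham array, its own spread is assumed to equal that of the knockout arrays. Without knockout replicate 2 the count at an unadjusted p under 0.05 was 4622, again with no call after adjustment.

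Pla2g2e, the targeted gene, read -6.89 on replicate 1, -3.68 and -3.36 on replicates 2 and 3, -4.69 on sham and -4.44, -5.83 and -4.97 on knockout replicates 1, 2 and 3. Its brightest probe thus gave a signal on the knockout arrays, and replicate 1 was lower still. Its other probe was well above background only on replicates 2 and 3 and sham, at -6.72, -6.50 and -6.83, and on neither replicate 1, which read lowest, nor the knockout arrays, at -7.94, -8.44 and -7.84. The labels do not say whether either probe lies in the deleted part. Neighbouring genes were compared between the genotypes as well. Within 10 Mb of the gene on chromosome 4, replicates 2 and 3 and sham were separated from all 3 knockout arrays by at least 0.5 in 12 of 384 features (3.13%), against 46 of 22928 elsewhere (0.201%). Replicate 1 lay on the side of the other wild type arrays in 5 of the 12, on the side of the knockout arrays in 6 and between them in 1, Tcea3, a transcription elongation factor. Among the 46 separated features elsewhere, these counts were 20, 16 and 10. Padi6, a deiminase of oocytes, read -4.95 on replicate 1, -6.28, -5.75 and -6.44 on the other wild type arrays and -8.99, -8.72 and -9.56 on the knockout arrays. Among the 6 on the knockout side were Pdpn, podoplanin, at 0.97, and Clic4, an intracellular chloride channel protein, at 2.38, where the other wild type arrays read 3.62 to 4.34 and 3.85 to 4.37. Padi4, a further deiminase gene among the 6, read -8.58 on replicate 1 and -2.69, -3.55 and -3.39 on replicates 2 and 3 and sham. The knockout arrays read -5.82, -7.01 and -7.31 for it. The other Padi4 probe had a gap of only -0.40. All 6 genes on the knockout side had a gap of more than 1 downward on replicate 1. The side they take in this count therefore cannot be told apart from that gap. The probes used for Padi3, another deiminase gene, and Padi4 were not well above background on replicate 1. The Y-linked gene Eif2s3y read 1.27 on replicate 1 and 1.73 and 1.72 on replicates 2 and 3, and Nnt, which some C57BL/6J stocks lack, read 1.79, 2.09 and 1.99.

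Measures of the arrays themselves were also compared. Replicate 1 had the most spots well above background, 79.1% against 72.5% to 77.0% on the other 6 arrays. Repeated spots of a probe had a median SD of 0.07 on replicate 1 and 0.06 to 0.07 on the others. Spike-in transcripts, added at fixed amounts, differed between replicate 1 and the nearer of replicates 2 and 3 by -0.54 to 0.47 before scaling and by -0.80 to 0.15 relative to the 75th percentile. Relative to the 75th percentile, every spike-in but the dimmest was lower on replicate 1, so the offset was largely in 1 direction. None reached the 2-fold mark that 38.1% of the features passed. The part of this offset in the gaps was not tested. A gene's other probes were also compared, but only those well above background on every array. For genes with a gap of at least 3 downward, 157 of 187 such probes (84.0%) passed 2-fold in the same direction. In the opposite direction 1 did. For gaps of at least 3 upward it was 103 of 109 (94.5%) and 0. Dimmer probes were not counted, so these shares do not cover them. RNA integrity of each sample was not given in the labels, and its part was not tested.

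Promoter sequences of the genes with the widest gaps were searched for 7 short motifs, of which 4 are given, in RefSeq's GRCm38.p6 windows of 250 bases before to 50 after each start, on both strands. The PU.1 core GAGGAAGT, a site type of the myeloid factor PU.1, occurred in 5.91% of the 930 promoters of genes at least 8-fold lower on replicate 1 (gap of 3) and in 0.490% of the 408 promoters of genes as much higher. It occurred in 2.99% of the promoters of all features and in 3.20% of all promoters in the table. The AP-1 motif TGANTCA occurred in 12.6%, 4.66%, 5.94% and 7.81% of the same sets. It was in 29.6% of 27 promoters of the phagocyte list but in 6.67% of 15 of the monocyte and macrophage list. In the cell cycle list, the NF-Y motif CCAAT occurred in 85.7% of 21 promoters and the CHR motif TTTGAA in 52.4%, against 37.3% and 13.1% of all features and 37.4% and 17.9% of all promoters. NF-Y was also in 66.7% of the monocyte and macrophage promoters. PU.1 core and AP-1 matched 0 of 33 in the synaptic list, but also 0 of 21 in the cell cycle list. PU.1 core matched 0 of 28 in the reactive astrocyte list. Its absence was thus not particular to the neuronal side. The sets also differed in base composition. The median count of CG pairs per promoter was 7 in the set at least 8-fold lower and 12 in the set as much higher. It was 17 over all features and 7 over all promoters. The part of composition in the motif shares was not tested. The 930 promoters belong to 772 genes and the 408 to 294, so not all are independent. None of these motifs holds another within its letters, and a match is a description of the sequence only. Of these windows, 2 are shown for 250 bases up to the start, with the match in capitals, at chr5:104434861-104435110 for Spp1 (PU.1 core, 1 of the 2 promoters of the gene) and chr9:7445572-7445821 for Mmp3 (AP-1), both on the + strand.
Spp1: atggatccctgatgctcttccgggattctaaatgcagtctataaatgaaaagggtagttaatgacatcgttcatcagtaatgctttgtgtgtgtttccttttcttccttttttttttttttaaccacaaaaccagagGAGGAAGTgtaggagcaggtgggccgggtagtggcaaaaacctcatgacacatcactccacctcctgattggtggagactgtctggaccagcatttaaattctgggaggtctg
Mmp3: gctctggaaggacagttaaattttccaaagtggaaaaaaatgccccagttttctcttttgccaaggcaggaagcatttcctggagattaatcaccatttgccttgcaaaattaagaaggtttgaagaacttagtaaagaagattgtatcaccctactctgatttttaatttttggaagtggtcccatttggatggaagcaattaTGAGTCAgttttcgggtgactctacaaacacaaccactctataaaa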

How the data were processed

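Total RNA was amplified and labelled with Cy3 and hybridised to Agilent 60-base oligonucleotide arrays, per the labels' protocols. The deposited files give each spot's intensity, extracted with Agilent's software, Feature Extraction 11.5.1.1 (submitters' processing notes). Background had been subtracted and multiplicative trends removed within each array, per the file headers. The deposited value table holds a ratio, found here to equal each array's processed signal over its 75th percentile within 0.0428%, so its scale is linear, without centring between arrays. Column medians lay between 0.0863 and 0.0976. The table was used as an alternative.

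From the deposited intensity, log2 was taken and each array's 75th percentile over its 43020 spots other than controls subtracted. Outlier spots were left out, which removed 28 of 39429 probes. Repeat spots were averaged, probes were kept where at least 3 of 7 arrays had them well above background, and the brightest probe stood for a gene. Of 39401 probes, 28315 matched a RefSeq gene table of GRCm38.p6, used for names. The filter is uneven: outside it, 1415 features were above background on replicate 1 and on neither replicate 2 nor 3, and 319 the other way. Counts of features higher on replicate 1 therefore leave some out.

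Knockout day 3 and sham were compared with limma 3.58.1 in R 4.3.3 (2 residual and 1.92 prior degrees of freedom, two-sided, Benjamini-Hochberg over all 23312 features). The step was tested on simulated data. Plots used Python 3.11.15 and matplotlib 3.10.9. The arrays, the 43 gene lists (654 of 683 entries measured) and the alternatives were chosen with earlier results of these data known. Named genes are the 5 markers with Pla2g2e and Padi4, the 20 widest gaps in each direction, 8 with only a bound in each, 6 per list (both ends) and the 10 smallest gaps. A few other genes, such as Gfap, Mki67 and Hprt, were added with their values in view. A few genes are not reported here. The number of arrays limits the precision.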

Additional observations from a re-analysis of the deposited data

How the results depend on the processing

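With a gap of at least 2 in place of 1, 2114 features were lower and 1750 higher. Under the other 9 alternatives (background correction by normexp, quantile normalisation, another scaling, 2 other filters, the median over probes, the deposited value table, and each of replicates 2 and 3 left out), the counts stayed within 1.5 times the main ones. Leaving out replicate 2 or 3 gave 4641 to 4734 lower and 5185 to 5353 higher. Of 23 lists with a median gap of at least 1 in size, 22 kept its sign and size under all of them; the hippocampal list had 0.67 with normexp and 0.32 with probes above background on all 3 wild type day 3 arrays. The reversals among the genes reported here were Itgam (-3.47) and Scn8a (2.05) with the median over probes, which pools probes that disagree, and Klrb1c (-0.0479) with normexp. Normexp also narrowed gaps of dim genes: that of Gpnmb went from -9.08 to -7.41, that of Drd2 from 5.02 to 3.57, and those given as bounds to -4.96 for Cdk1, -4.04 for Cxcr2, -6.24 for Mmp3, 1.64 for Sstr2 and 1.52 for Drd3, so that the stated bounds do not hold there. With the median over probes that of Cdk1 was -2.50. For knockout against sham with limma, each knockout array left out in turn gave 0 calls, with 4622 features at an unadjusted p under 0.05 without knockout replicate 2. A model of 3 groups called 3 features with all 7 arrays (BC002059, Cnot9 and Zfp652) and 8 with 6 arrays, replicate 1 left out; the cause was not tested. Those 3 read -7.50, -9.37 and -9.37 on sham. Depth on arrays is signal over background, which limits the gaps of dim genes to bounds. No paired analysis was possible because the sham group has 1 replicate number and the gap comes from no test.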

Other observations

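A few genes outside the lists had sham and replicate 1 together and away from replicates 2 and 3; they were chosen after their values were seen. Sham was within 0.5 of replicate 1, and at least 1 beyond replicates 2 and 3, in 75 of the 4289 features lower on replicate 1 (1.75%) and in 93 of the 4584 higher (2.03%). Besides the globins, the lower ones included Plat, tissue plasminogen activator, which read -0.93 on replicate 1, -0.98 on sham, 0.91 and 1.67 on replicates 2 and 3 and 1.58, 0.76 and 1.65 on knockout replicates 1, 2 and 3. Prrx1, a homeobox gene of mesenchymal cells, read -3.60 and -3.64 on replicate 1 and sham and -1.21 and -1.28 on replicates 2 and 3. Among the higher ones, Sox8, a transcription factor of the oligodendrocyte lineage, read -0.75 on replicate 1, -0.94 on sham and -2.25 and -2.53 on replicates 2 and 3. The knockout arrays read -2.46, -0.94 and -3.28, so that knockout replicate 2 was with sham for Sox8. For Plat and Prrx1 it was not, and Prrx1 read -1.78, -1.28 and -1.74 on the knockout arrays.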
